A study of Mus musculus with 6 samples.

Results

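The genes described here shape 2 kinds of surface membrane, the T-tubules of the heart muscle cell and caveolae, which endothelium has as well. They are the junctophilin genes *Jph1* and *Jph2*, the membrane-bending gene *Bin1*, the caveolin genes *Cav1*, *Cav2* and *Cav3*, and the cavin genes *Cavin1*, *Cavin2*, *Cavin3* and *Cavin4*. They were chosen by name, as the probe sets annotated to exactly 1 of these symbols. All 10 were measured, by 19 probe sets, among 18193 genes and 34945 probe sets in all. Expression was compared between whole ventricles of 3 OE mice, of genotype *Myh6-MCM; CAG-S-COUP-TFII*, and 3 CTRL mice, of genotype *Myh6-MCM* (Myh6-MerCreMer in the labels). Both groups had a mixed background, 129SvEv/C57Bl6/J, and both were given tamoxifen, 40 mg per kg and day over 3 days, with ventricles taken on day 16 after the first dose. The labels give the age as 2.5 months. In OE mice the Cre recombinase, which is driven by the *Myh6* promoter and acts in cardiomyocytes, switches on COUP-TFII, a nuclear receptor. CTRL mice carried the same Cre and the same drug, and no mice without Cre or without tamoxifen enter the comparison.

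T-tubules are inward folds of the cardiomyocyte membrane that carry the action potential to the calcium release channels of the sarcoplasmic reticulum. Junctophilins hold the 2 membranes together at the dyad, and BIN1 bends the membrane of the tubule. Caveolae are flask-shaped pits of the cell surface built from caveolins and coated by cavins. Caveolin-3 and cavin-4 are the muscle forms, while caveolin-1, caveolin-2 and cavin-2 are abundant in endothelium and fat as well, and caveolin-3 also takes part in the growth of T-tubules.

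Each value is a log2 value relative to the median that its probe set had over the 6 arrays, averaged over the probe sets of a gene. Such values tell arrays apart but carry no level of expression, so one gene's level cannot be set against another's, and the presence of cardiomyocyte markers in the tissue cannot be read from them. Because of the centring, the 2 middle values of a probe set often mirror each other around 0. A gene was called when its p from limma, two-sided and adjusted by Benjamini and Hochberg over all 18193 genes, was below 0.05. By this rule 26.7% of all genes were called, 14.9% higher and 11.8% lower in OE, and 24.5% were both called and changed by at least 1.2-fold. Over single probe sets the share was 24.4% (13.9% higher and 10.4% lower). Beside limma stood the test that the methods name, a one-way analysis of variance with the same adjustment, called the methods' test here, which called 14.1% of all genes (7.90% higher and 6.18% lower). It was run over the means of all 18193 genes, without the filter on expression that the methods apply before it. It is therefore not their whole procedure. Setting the median of the ribosomal protein genes to 0 in every array, called ribosomal centring here, gave 54.7% (7.63% higher and 47.1% lower). As a check of the labels, the *Nr2f2* (COUP-TFII) probe set with the largest difference read 1.72, 1.60 and 1.91 in the OE arrays, against −1.99, −1.60 and −1.65 in the CTRL arrays (adjusted p = 2.6e-05 from limma over probe sets). The other 5 *Nr2f2* probe sets did not show this rise. Their log2 differences were −0.34 to −0.13 and none was called, though in 1 of them every OE array was below every CTRL array (log2 −0.28, adjusted p = 0.075). OE arrays lay 0.194 to 0.215 from each other (root mean square of the log2 differences over genes), CTRL arrays 0.208 to 0.233, and arrays of different groups 0.375 to 0.427, so no array stood apart.

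The start regions of 7 of the 10 genes were at hand (RefSeq, mouse build GRCm38.p6), from 250 bases before to 50 bases after a start listed for the gene. A listed start need not be the outer end of the gene, and for *Jph2* it lay inside the gene. *Jph1*, *Bin1* and *Cavin3* had no entry. Those below are shown because *Cav2*, *Cav1* and *Cavin2* were the genes lower in OE, *Cavin4* was higher, and *Cav3* and *Jph2*, for which no call was made, contained the core site that nuclear receptors such as COUP-TFII can bind. *Cav2* and *Cav1* are neighbours on chromosome 6, on the same strand and 17204 bases apart. Capitals mark matches on either strand to any of 3 motifs. The core site of nuclear receptors was searched as AGGTCA. The MCAT element known from many muscle genes was searched as CATTCC. The TATA box, where the transcription machinery can be placed, was searched as TATAAA.
Cav2 (chr6:17280935-17281234, plus strand): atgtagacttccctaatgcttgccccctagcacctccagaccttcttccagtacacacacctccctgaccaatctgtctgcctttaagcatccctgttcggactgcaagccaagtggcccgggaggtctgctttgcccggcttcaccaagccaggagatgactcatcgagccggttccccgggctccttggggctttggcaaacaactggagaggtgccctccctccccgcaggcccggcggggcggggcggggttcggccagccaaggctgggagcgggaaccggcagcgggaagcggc
Cav1 (chr6:17306085-17306384, plus strand): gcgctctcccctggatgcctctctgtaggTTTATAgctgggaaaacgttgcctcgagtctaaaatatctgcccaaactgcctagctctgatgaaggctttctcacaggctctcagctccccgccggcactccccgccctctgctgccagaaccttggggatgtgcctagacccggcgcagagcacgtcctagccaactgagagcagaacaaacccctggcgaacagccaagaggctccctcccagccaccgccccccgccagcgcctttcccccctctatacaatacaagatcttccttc
Cavin2 (chr1:51288876-51289175, plus strand): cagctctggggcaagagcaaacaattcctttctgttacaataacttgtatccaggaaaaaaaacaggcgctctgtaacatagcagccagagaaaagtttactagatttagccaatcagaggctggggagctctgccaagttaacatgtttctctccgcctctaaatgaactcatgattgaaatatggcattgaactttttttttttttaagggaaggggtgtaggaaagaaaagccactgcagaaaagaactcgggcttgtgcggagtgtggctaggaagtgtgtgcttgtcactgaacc
Cavin4 (chr4:48663264-48663563, plus strand): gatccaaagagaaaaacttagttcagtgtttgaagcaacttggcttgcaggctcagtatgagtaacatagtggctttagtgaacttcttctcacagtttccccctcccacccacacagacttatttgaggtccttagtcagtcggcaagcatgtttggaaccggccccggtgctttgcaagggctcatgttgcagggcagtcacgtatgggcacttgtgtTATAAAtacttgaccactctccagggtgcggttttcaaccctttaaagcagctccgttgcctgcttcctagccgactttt
Cav3 (chr6:112459255-112459554, plus strand): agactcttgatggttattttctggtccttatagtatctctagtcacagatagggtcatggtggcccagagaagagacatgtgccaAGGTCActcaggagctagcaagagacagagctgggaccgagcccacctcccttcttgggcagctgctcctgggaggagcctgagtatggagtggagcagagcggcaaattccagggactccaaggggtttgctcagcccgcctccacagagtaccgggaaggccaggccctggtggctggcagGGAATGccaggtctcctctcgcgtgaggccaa
Jph2 (chr2:163397944-163398243, minus strand): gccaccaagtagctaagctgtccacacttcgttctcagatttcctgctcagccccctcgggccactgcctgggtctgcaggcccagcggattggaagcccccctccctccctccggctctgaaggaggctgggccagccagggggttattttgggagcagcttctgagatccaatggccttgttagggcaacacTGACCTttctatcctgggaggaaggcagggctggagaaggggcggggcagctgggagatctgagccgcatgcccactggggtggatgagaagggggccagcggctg
AGGTCA was found in *Cav3* and in both overlapping windows of *Jph2*, 3 of the 10 windows of these genes, and in 16.3% of all 32851 windows of the same length. The windows of *Cav1*, *Cav2*, *Cavin1*, *Cavin2* and *Cavin4* did not hold these letters. CATTCC was found in *Cav3* and in both windows of *Cavin1*, against 14.7% of all windows. TATAAA was found in *Cavin4*, 30 bases before the start, and, on the opposite strand, in 1 of 2 windows of *Cav1*, against 13.6% of all windows. No 2 matches overlapped within a window. A match is a description of the letters and not evidence of binding.

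The 5 calls fell on caveolin and cavin genes. In OE ventricles *Cavin2*, *Cav1* and *Cav2* were lower and *Cavin3* and *Cavin4* higher, by 1.27-fold to 1.57-fold, while *Cav3*, *Cavin1* and the 3 T-tubule genes *Jph1*, *Jph2* and *Bin1* were not called. This makes 2 of 10 genes called higher, against 14.9% of all genes, and 3 of 10 called lower, against 11.8%. The median log2 change of the 10 genes was −0.10, beside −0.03 for all genes. OE and CTRL arrays did not overlap for 6 of the 10 genes (2 above, 4 below), against 45.6% of all genes (22.0% above and 23.6% below). With the methods' test *Cav2* alone kept its call.

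**Figure D1:**
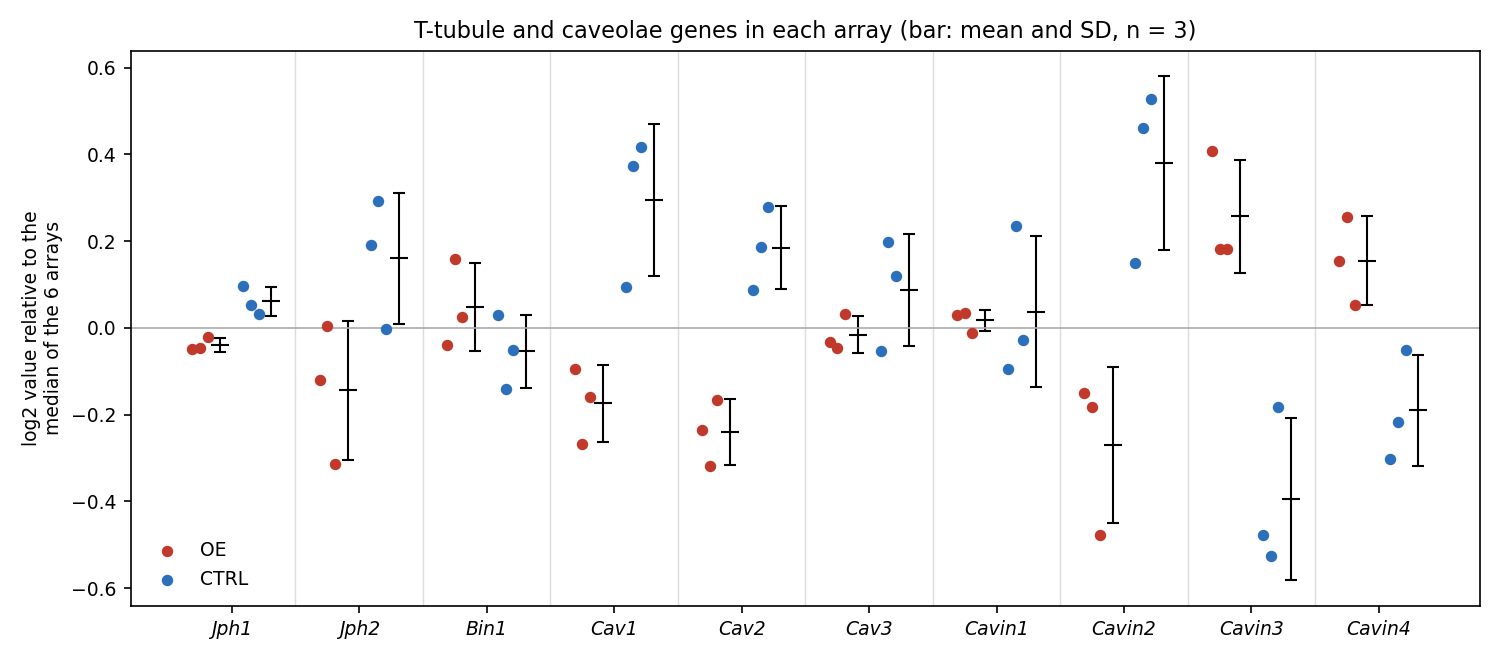
Log2 value of each gene, relative to the median of the 6 arrays (vertical axis), in the 3 OE arrays (red) and the 3 CTRL arrays (blue), with bars for group mean and SD. The groups are apart for *Jph1*, *Cav1*, *Cav2*, *Cavin2*, *Cavin3* and *Cavin4*, by the widest margin of means for *Cavin2* (−0.27 in OE, 0.38 in CTRL) and *Cavin3* (0.26 in OE, −0.40 in CTRL).

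Among the genes that build T-tubules, *Jph2* encodes the junctophilin of the heart. It read −0.12, 0.00 and −0.31 in the OE arrays, against 0.19, 0.29 and −0.00 in the CTRL arrays. The groups just overlapped, since OE 2 stood marginally above CTRL 3. The means were −0.14 ± 0.16 in OE and 0.16 ± 0.15 in CTRL (SD, n = 3 each), and *Jph2* was not called (log2 −0.30, SE 0.11, adjusted p = 0.0749 from limma). Its 95% interval ran from −0.56 to −0.05, so a fall of up to 1.47-fold was within it. Both *Jph2* probe sets pointed the same way, with log2 differences of −0.36 and −0.25 (adjusted p of 0.0819 and 0.116 from limma over probe sets). Among the alternatives that called *Jph2* lower were ribosomal centring (log2 −0.50, adjusted p = 0.0105) and the removal of CTRL 3 (log2 −0.39, adjusted p = 0.0433).

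*Jph1* encodes the junctophilin best known from skeletal muscle. It read −0.05, −0.05 and −0.02 in the OE arrays, against 0.10, 0.05 and 0.03 in the CTRL arrays. All OE arrays were below all CTRL arrays, but by a small margin, and *Jph1* was not called (log2 −0.10, SE 0.06, 95% interval −0.24 to 0.04, adjusted p = 0.262 from limma). Its 2 probe sets did not move alike, at 0.00 and −0.20 on the log2 scale, neither of them called. Under ribosomal centring *Jph1* was called lower (log2 −0.30, adjusted p = 0.0086).

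*Bin1*, which encodes the BAR domain protein that folds the tubule membrane, read −0.04, 0.16 and 0.03 in the OE arrays, against 0.03, −0.14 and −0.05 in the CTRL arrays. The arrays of the groups overlapped. The log2 difference was 0.10 (SE 0.08, 95% interval −0.08 to 0.29, adjusted p = 0.377 from limma), and −0.10 under ribosomal centring. None of its 3 probe sets was called, with log2 differences of 0.01, 0.06 and 0.24. *Bin1* has many spliced forms, and which of them each probe set detects is not given in the sources used here.

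Of the caveolin genes, *Cav1*, which encodes the principal caveolin of non-muscle cells, read −0.09, −0.27 and −0.16 in the OE arrays, against 0.09, 0.37 and 0.42 in the CTRL arrays. Every OE array lay below every CTRL array, with CTRL 1 the nearest to them. *Cav1* was 1.38-fold lower (log2 −0.47, SE 0.10, 95% interval −0.70 to −0.24, adjusted p = 0.0132 from limma). It was measured by 1 probe set. The methods' test did not call it (adjusted p = 0.0704).

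*Cav2*, whose product joins caveolin-1 in hetero-oligomers, read −0.24, −0.32 and −0.17 in the OE arrays, against 0.09, 0.19 and 0.28 in the CTRL arrays. The groups were clearly apart, and their means were −0.24 ± 0.08 in OE and 0.19 ± 0.10 in CTRL (SD, n = 3 each). *Cav2* was 1.34-fold lower (log2 −0.43, SE 0.08, adjusted p = 0.0073 from limma). Of its 2 probe sets, one was called lower (log2 −0.52, adjusted p = 0.0055) and the other was not (log2 −0.33, adjusted p = 0.074). It was called lower in each of the 13 alternative ways of processing the data, with the methods' test at an adjusted p of 0.037 and the others at 0.001 to 0.028.

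*Cav3*, the caveolin of muscle, read −0.03, −0.05 and 0.03 in the OE arrays, against −0.05, 0.20 and 0.12 in the CTRL arrays. CTRL 1 was the lowest of all 6 arrays, so the groups overlapped. The log2 difference was −0.10 (SE 0.08, 95% interval −0.29 to 0.09, adjusted p = 0.378 from limma). The interval leaves room for a fall of up to 1.23-fold. Under ribosomal centring *Cav3* was called lower (log2 −0.30, adjusted p = 0.0184). It was measured by 1 probe set.

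The cavin genes moved in both directions. *Cavin2*, formerly *Sdpr*, encodes a cavin that promotes membrane curvature. It read −0.15, −0.18 and −0.48 in the OE arrays, against 0.15, 0.46 and 0.53 in the CTRL arrays. The groups did not overlap, with OE 3 the lowest array and CTRL 1 the CTRL array nearest to OE. *Cavin2* was 1.57-fold lower (log2 −0.65, SE 0.13, 95% interval −0.94 to −0.36, adjusted p = 0.0091 from limma). All 3 of its probe sets were called lower, with log2 differences of −0.59 to −0.69 (adjusted p from 0.0084 to 0.0165 from limma over probe sets, where 10.4% of all probe sets were called lower). The methods' test did not call the gene (adjusted p = 0.0696).

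*Cavin3*, formerly *Prkcdbp*, encodes a cavin that binds protein kinase C delta. It read 0.41, 0.18 and 0.18 in the OE arrays, against −0.48, −0.53 and −0.18 in the CTRL arrays. The arrays of the groups were apart, with CTRL 3 the closest to OE. *Cavin3* was 1.57-fold higher (log2 0.65, SE 0.11, 95% interval 0.39 to 0.91, adjusted p = 0.0055 from limma), measured by 1 probe set. The methods' test did not call it (adjusted p = 0.0521).

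*Cavin4*, formerly *Murc*, encodes the muscle cavin, which is found at T-tubules and caveolae of cardiomyocytes. It read 0.15, 0.26 and 0.05 in the OE arrays, against −0.30, −0.22 and −0.05 in the CTRL arrays. The groups did not overlap, though OE 3 and CTRL 3 came within a short distance of each other. *Cavin4* was 1.27-fold higher (log2 0.34, SE 0.09, 95% interval 0.14 to 0.55, adjusted p = 0.0272 from limma), measured by 1 probe set. Of the 5 calls this one was lost under the most alternatives, among them the methods' test (adjusted p = 0.0881), ribosomal centring (log2 0.15, adjusted p = 0.239) and the removal of OE 1, OE 2, CTRL 1 or CTRL 2 (adjusted p from 0.0749 to 0.0836).

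*Cavin1*, formerly *Ptrf*, encodes the cavin without which caveolae do not form. It read 0.03, 0.03 and −0.01 in the OE arrays, against −0.09, 0.23 and −0.03 in the CTRL arrays. The 3 OE arrays lay inside the range of the CTRL arrays. The log2 difference was −0.02 (SE 0.09, 95% interval −0.24 to 0.20, adjusted p = 0.89 from limma), so changes of up to 1.18-fold down or 1.15-fold up were within the interval. Its 3 probe sets differed in sign, at −0.28, 0.09 and 0.12 on the log2 scale, and none was called. In the first of them CTRL 2 read 0.65, well above the other arrays, and without CTRL 2 the difference for the gene was 0.078.

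**Figure D2:**
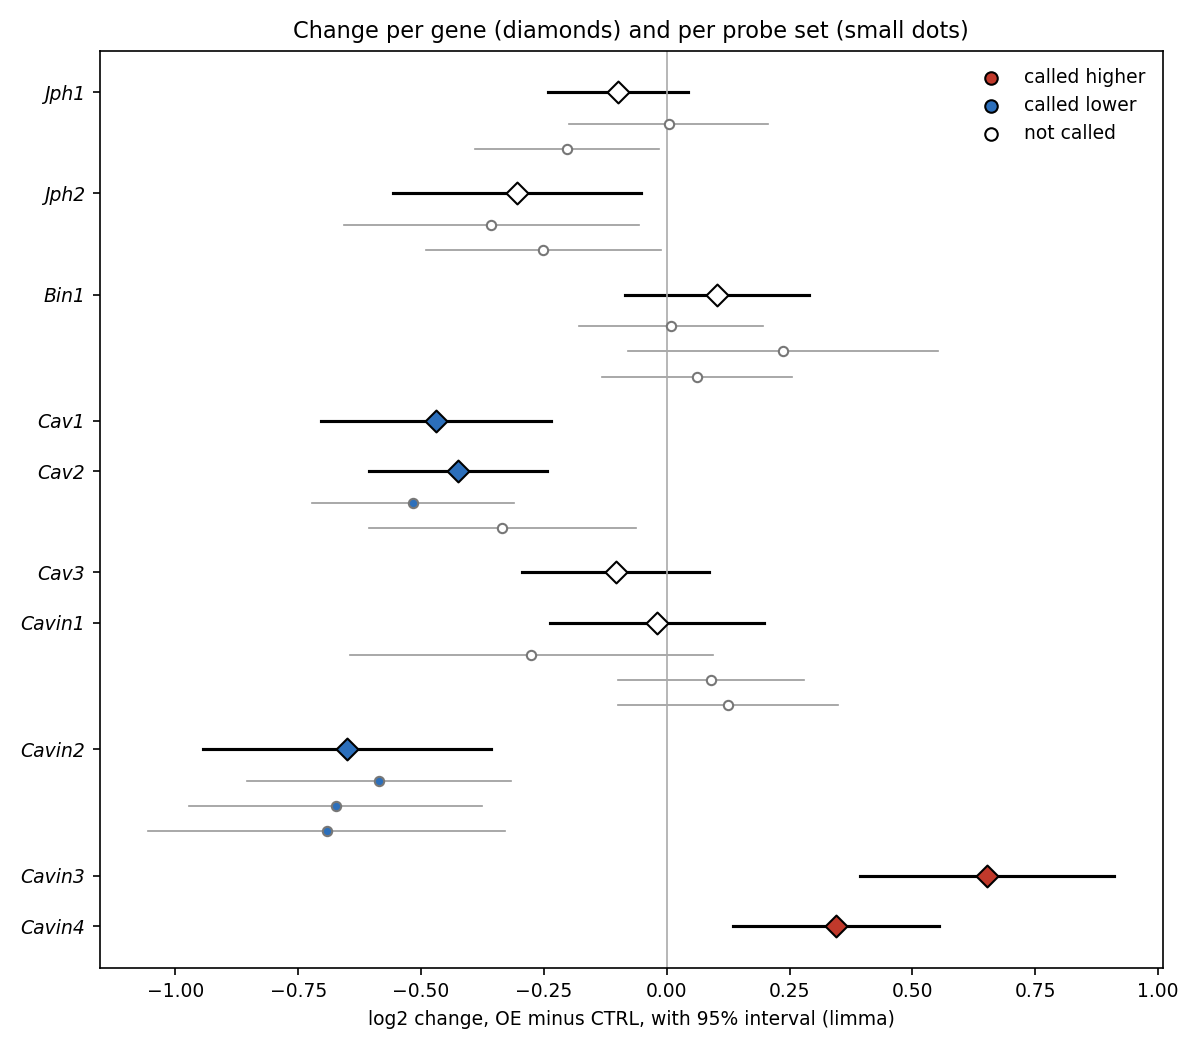
Log2 change, OE minus CTRL (horizontal axis), with its 95% interval from limma, for each of the 10 genes (diamonds) and, where a gene has more than 1, for each probe set (small dots), 3 arrays per group. Red marks a call higher in OE, blue a call lower and white no call. All 3 *Cavin2* probe sets sit between −0.69 and −0.59, while those of *Cavin1* lie on both sides of 0.

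Whether genes of a family moved differently was measured inside each array, by subtracting the log2 value of one gene from that of another, over the 10 pairs within the caveolin, cavin and junctophilin families. These pairs were examined after the values of the single genes were known. An exact permutation test of 3 arrays against 3, two-sided, cannot give a p below 0.1, and 8 of the 10 pairs reached that value, those whose OE and CTRL arrays did not overlap. These pairs share genes, and already 6 of the 10 single genes did not overlap, against 45.6% of all genes, so the count of pairs is a description only. *Cavin2* minus *Cavin3* was the widest of the 10, at −0.56, −0.37 and −0.66 in the OE arrays, against 0.63, 0.99 and 0.71 in the CTRL arrays, a difference of −1.30. *Cavin2* minus *Cavin4* averaged −0.42 ± 0.11 in OE and 0.57 ± 0.11 in CTRL (SD, n = 3 each). The ratio of *Cavin2* to either of these cavins was therefore lower in each OE array than in each CTRL array.

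Against *Cavin1*, which was itself not called, *Cavin2* moved down and *Cavin3* and *Cavin4* up in OE. *Cavin1* minus *Cavin2* averaged 0.29 ± 0.16 in OE and −0.34 ± 0.18 in CTRL, and *Cavin1* minus *Cavin3* averaged −0.24 ± 0.12 in OE and 0.43 ± 0.31 in CTRL (SD, n = 3 each). Among the caveolins, *Cav1* minus *Cav3* averaged −0.16 ± 0.09 in OE and 0.21 ± 0.08 in CTRL, and *Cav2* minus *Cav3* averaged −0.22 ± 0.04 in OE and 0.10 ± 0.09 in CTRL (SD, n = 3 each). The neighbours *Cav1* and *Cav2* did not come apart from each other at this precision, with *Cav1* minus *Cav2* at 0.07 ± 0.07 in OE and 0.11 ± 0.09 in CTRL (p = 0.7, exact permutation test, n = 3 each). *Jph1* minus *Jph2* overlapped between the groups as well (p = 0.2, exact permutation test, n = 3 each). Differences within an array do not depend on how the arrays are centred.

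**Figure D3:**
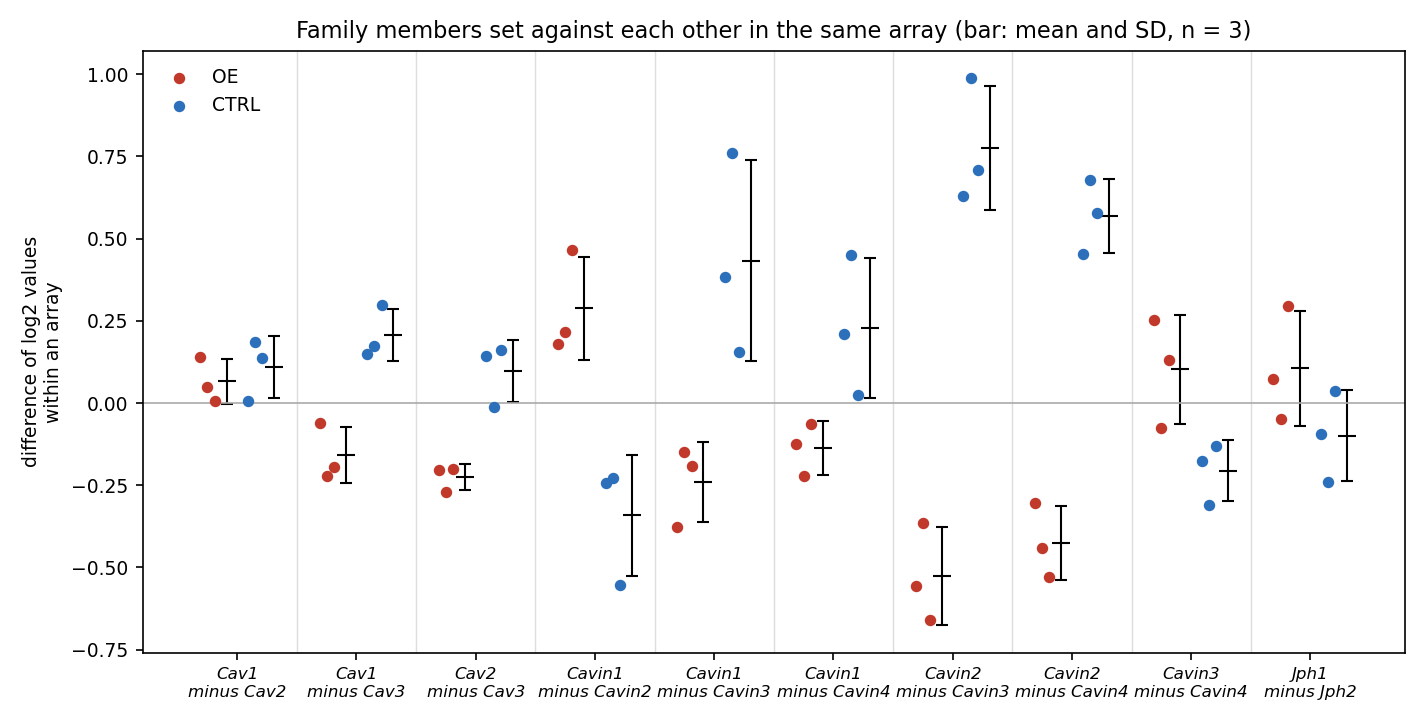
Difference between the log2 values of 2 genes of a family in the same array (vertical axis), for 10 pairs, in the 3 OE arrays (red) and the 3 CTRL arrays (blue), with mean and SD as bars. *Cavin2* minus *Cavin3* and *Cavin2* minus *Cavin4* are negative in all OE arrays and positive in all CTRL arrays, while *Cav1* minus *Cav2* and *Jph1* minus *Jph2* overlap between the groups.

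Partners of these proteins at the dyad and the T-tubule were taken from a list of 24 genes, of which 23 were measured. Of these, 4 were called higher and 8 lower, beside 14.9% and 11.8% of all genes, and 11 were not called. The median log2 change was −0.23, beside −0.03 for all genes, and −0.12 without OE 2. The largest change was that of *Dysf*, the membrane repair protein dysferlin, which also sits at T-tubules. It read 0.52, 0.76 and 0.65 in the OE arrays, against −0.52, −0.69 and −0.68 in the CTRL arrays, a 2.42-fold rise (adjusted p = 0.000188 from limma) that separated the groups widely. *Cmya5*, which encodes myospryn, a protein of the Z-disc that positions dyads, was 2.00-fold lower (adjusted p = 0.00205). *Fkbp1b*, a binding partner of the cardiac ryanodine receptor, was 1.90-fold higher (adjusted p = 0.0042, but 0.0529 with the methods' test).

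*Popdc2*, a cAMP-binding membrane protein of muscle, was 1.78-fold higher (adjusted p = 0.00116), and the sodium-calcium exchanger gene *Slc8a1* was 1.46-fold higher (adjusted p = 0.0114, but 0.0716 with the methods' test). *Mtm1*, the lipid phosphatase myotubularin, was not called (log2 −0.47, adjusted p = 0.0549), but was lower under ribosomal centring (adjusted p = 0.0084) and without CTRL 1 (log2 −0.64, adjusted p = 0.007). 3 listed relatives of the junctophilins and of *Bin1* are named here after their values were seen. *Jph3* (log2 −0.37, adjusted p = 0.0087) and *Amph*, the amphiphysin gene (log2 −0.72, adjusted p = 0.0183), were lower, and *Jph4* had a log2 difference of −0.17 (adjusted p = 0.135). Since the values carry no level of expression, it could not be seen whether these 3 genes lay near background. Also called lower in this list were *Ryr2* (log2 −0.55), *Nexn* (−0.54), *Cacna1c* (−0.53), *Trdn* (−0.39) and *Ank2* (−0.36). Under ribosomal centring 4 genes of the list were called higher and 15 lower, beside 7.63% and 47.1% of all genes.

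Partners of caveolae were taken from a list of 18 genes, 17 of them measured, of which 3 were called higher and 3 lower, beside 14.9% and 11.8% of all genes, and 11 were not called. Their median log2 change had no stable sign. It was 0.08 over all arrays, beside −0.03 for all genes, and −0.12 under ribosomal centring, which moved the median of all genes to −0.23. Without CTRL 3 the list median was −0.058 and without OE 1 it was 0.027, each beside −0.03 for all genes. Of the ATPases that sit around the neck of caveolae, *Ehd4* was 1.56-fold higher (0.34, 0.21 and 0.21 in the OE arrays, against −0.21, −0.46 and −0.49 in the CTRL arrays, adjusted p = 0.00289 from limma). *Ehd2*, the member that holds caveolae at the surface, was 1.29-fold lower (adjusted p = 0.0249), a call that was lost with the methods' test and without any 1 of the arrays except CTRL 1 (adjusted p from 0.0551 to 0.0888), and its log2 change was −0.67 by its most variable probe set. The 2 genes thus moved in opposite directions, by log2 0.64 and −0.37.

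Among the membrane-bending pacsins, *Pacsin3*, the form of muscle, was 1.42-fold higher (adjusted p = 0.0026), and *Pacsin1*, the neuronal form, was not called (log2 −0.26, adjusted p = 0.091). *Pacsin1* was called lower without CTRL 3 (log2 −0.36, adjusted p = 0.0234) and under ribosomal centring (log2 −0.46, adjusted p = 0.0097). *Nos3*, the endothelial nitric oxide synthase that caveolin-1 binds, was lower (log2 −0.49, adjusted p = 0.008). *Dag1*, the dystroglycan gene, was 1.37-fold lower (adjusted p = 0.0113). Neither of the last calls held with the methods' test (adjusted p of 0.0514 for *Nos3* and 0.0608 for *Dag1*).

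**Figure D4:**
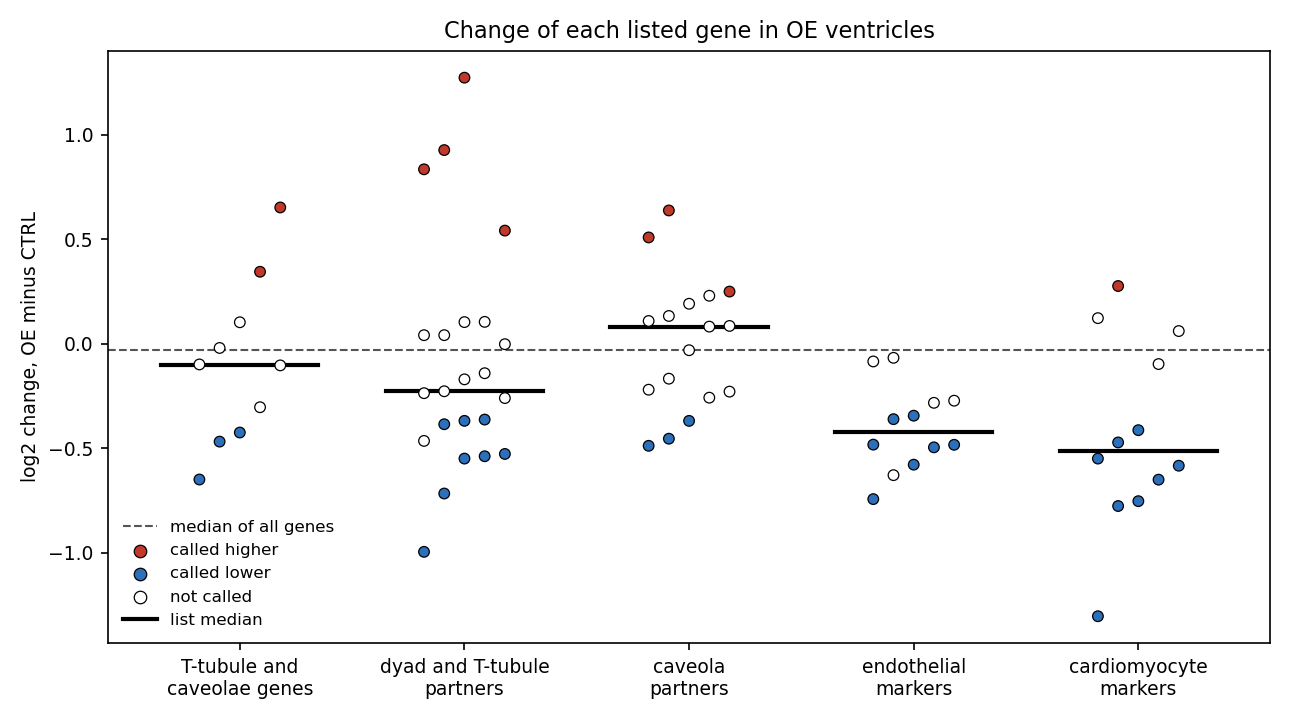
Log2 change in OE relative to CTRL (vertical axis) of every measured gene of the 10 T-tubule and caveolae genes, of both partner lists and of 2 marker lists. Red marks genes called higher, blue genes called lower and white genes not called, black bars give the list medians (−0.10, −0.23, 0.08, −0.42 and −0.51 from left to right) and the dashed line is the median of all genes, −0.03.

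Whole ventricles hold several cell types, and in such tissue fewer cells of a type cannot be told apart from less RNA per cell. Endothelium, which is rich in *Cav1*, *Cav2* and *Cavin2*, had markers that fell with these genes: of 12 endothelial markers 7 were lower and 0 higher, beside 11.8% and 14.9% of all genes, with a median log2 change of −0.42. The count of lower markers was 2 with the methods' test, beside 6.18% of all genes, and 3 without OE 2, beside 1469 of all 18193 genes. The median of the markers was −0.36 without OE 2. The means of the 12 markers were −0.08, −0.17 and −0.24 in the OE arrays, against 0.11, 0.21 and 0.40 in the CTRL arrays. *Robo4* (log2 −0.74, adjusted p = 0.00122) and *Erg* (log2 −0.58, adjusted p = 0.0051) were among those called, while *Pecam1* had a log2 difference of −0.07 (adjusted p = 0.602). Relative to the mean of these markers in the same array, *Cav1* averaged −0.01 ± 0.09 in OE and 0.06 ± 0.09 in CTRL (SD, n = 3 each), and the groups overlapped (p = 0.5, exact permutation test).

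*Cav2* behaved alike on this scale, at −0.08 ± 0.13 in OE and −0.05 ± 0.06 in CTRL (p = 0.8, exact permutation test, n = 3 each). *Cavin2* was still lower relative to the endothelial markers, at −0.11 ± 0.12 in OE and 0.14 ± 0.11 in CTRL, with no overlap (p = 0.1, the smallest that the exact permutation test allows, n = 3 each). *Cavin3* and *Cavin4* were higher relative to them in every OE array, by differences of 1.05 and 0.75 on the log2 scale. On this scale the groups were thus apart for *Cavin2*, *Cavin3* and *Cavin4*, and they overlapped for *Cav1* and *Cav2*. *Jph1* (difference 0.30), *Bin1* (0.51), *Cav3* (0.30) and *Cavin1* (0.38), none of them called, also stood higher against these markers in every OE array. Standing higher was thus not particular to *Cavin3* and *Cavin4*, since a gene that keeps its value rises against a list that falls. Relative to the mean of 12 cardiomyocyte markers the groups overlapped for each of the genes called lower. The differences were −0.04 for *Cav1* (p = 0.5), 0.0036 for *Cav2* (p = 1) and −0.22 for *Cavin2* (p = 0.3, exact permutation tests, n = 3 each). The part of a change in endothelium or in cardiomyocytes in the values of *Cav1*, *Cav2* and *Cavin2* was not tested.

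Of these 12 cardiomyocyte markers 8 were lower and 1 higher, beside 11.8% and 14.9% of all genes, with a median of −0.51, among them *Myh6* (log2 −1.31, adjusted p = 0.000143). The means of the list were −0.20, −0.20 and −0.27 in the OE arrays, against 0.17, 0.25 and 0.20 in the CTRL arrays. Relative to this list, the muscle genes *Cav3* and *Cavin4* were higher in OE, at 0.21 ± 0.09 in OE and −0.12 ± 0.09 in CTRL for *Cav3* and at 0.38 ± 0.07 in OE and −0.40 ± 0.13 in CTRL for *Cavin4*, with no overlap in either case (SD, n = 3 each, p = 0.1, the smallest that the exact permutation test allows). The same held for *Jph1* (difference 0.33), *Bin1* (0.53), *Cavin1* (0.41) and *Cavin3* (1.08), so it was not particular to the muscle genes, and a gene that keeps its value stands higher against a list that falls. *Jph2* relative to the list overlapped between the groups, at 0.08 ± 0.12 in OE and −0.05 ± 0.14 in CTRL (p = 0.4, exact permutation test, n = 3 each). The list holds genes that respond to the state of the heart, so it does not measure the number of cardiomyocytes.

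Markers of other cell types changed too. Of 10 macrophage markers 6 were higher and 0 lower, of 10 fibroblast markers 5 were higher and 1 lower, and of 12 markers of smooth muscle and pericytes 4 were higher and 6 lower, beside 14.9% higher and 11.8% lower of all genes. The count of higher macrophage markers was 2 with the methods' test, beside 7.90% of all genes, and 3 under ribosomal centring, beside 7.63%. It was also 3 without OE 2, OE 3, CTRL 1 or CTRL 2, beside 1984 to 2133 of all 18193 genes. The methods' test called 2 fibroblast markers higher, beside the same 7.90%. Of the 4 adipocyte markers measured, none was called (*Adipoq* log2 0.45, adjusted p = 0.144). The part of these cells in the rise of *Cavin3* and *Cavin4* was not tested.

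**Figure D5:**
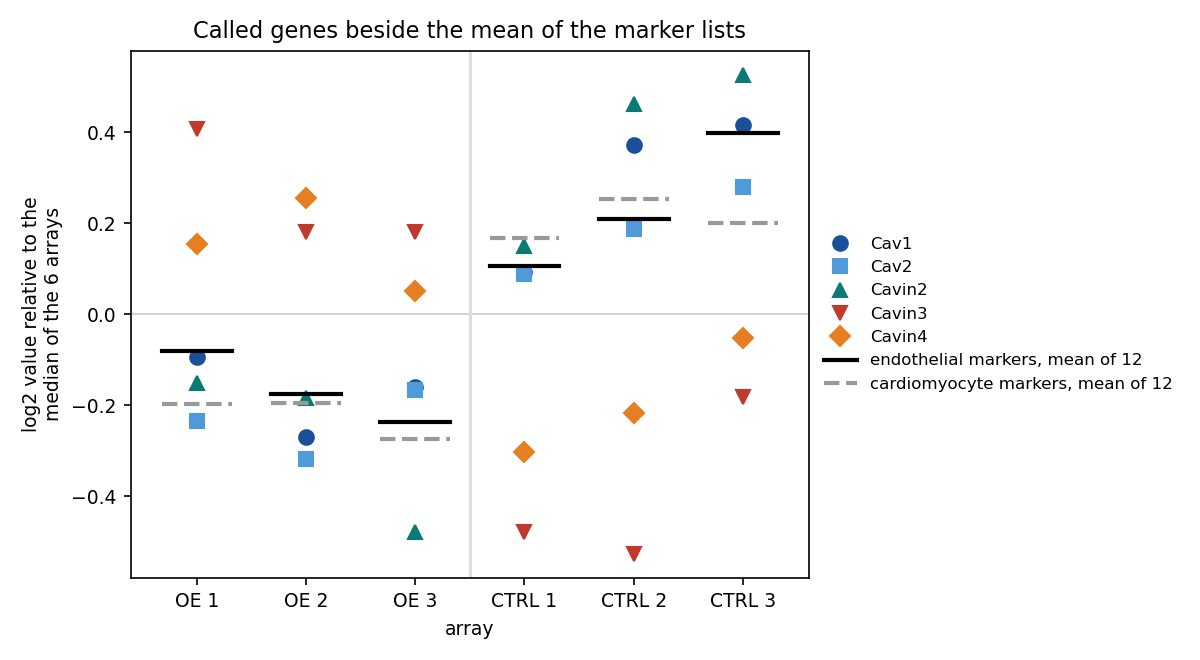
Log2 values, relative to the median of the 6 arrays (vertical axis), of the 5 called genes in each OE and CTRL array (horizontal axis), with the mean of 12 endothelial markers (solid bars) and of 12 cardiomyocyte markers (dashed bars). *Cav1*, *Cav2* and *Cavin2* lie on the same side of 0 as the bars in each array, and *Cavin3* and *Cavin4* on the opposite side.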

How the data were processed

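RNA of whole ventricles of 6 mice was hybridized to Affymetrix whole-genome mouse arrays. In GeneSpring GX the authors summarized the probe sets by RMA, made the arrays alike by quantile normalization and subtracted the median over all samples. Deposited values were read as log2, the scale of RMA, since no source used here names the base. Every probe set had a median within 5.0e-07 of 0.

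Of 45101 probe sets, 932 that name several symbols, 9211 without a gene here and 64 array controls, some of them also in the other classes, were left out. Symbols were updated by gene ID, and 162 IDs without a reference entry kept the symbol of the array annotation. The remaining probe sets of a gene were averaged. OE and CTRL were compared by limma 3.58.1 (lmFit, eBayes, no covariates; R 4.3.3), a script checked on simulated data, and figures were drawn with Python 3.11.15. The replicates are separate mice, and 3 arrays per group limit the precision.

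The genes and lists were chosen with earlier results of these data known. From each partner list the 4 called genes with the largest change and up to 2 not called or opposite to the list median were named. Of the dyad list the other genes called lower were named as well. Tried besides were the methods' one-way analysis of variance, array weights, other choices of probe sets, centring arrays on the ribosomal protein genes or on their own median, a block for the replicate number, a fold limit of 1.2 and leaving out each array. Filters on expression level could not be applied to centred values.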

Additional observations from a re-analysis of the deposited data

How the results depend on the processing

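The 5 calls kept their direction in all 13 alternatives that were refitted, and a fold limit of 1.2 removed none of them. Of the 10 genes, limma called 2 higher and 3 lower. The methods' test gave 0 higher and 1 lower (1437 of all genes higher and 1125 lower, against 2709 and 2152 with limma). Centring arrays on the 44 ribosomal protein genes measured moved the median of all genes from −0.03 to −0.23 and gave 1 higher and 6 lower of the 10, with 1389 and 8563 of all genes, where *Bin1* reversed to −0.10. Leaving out 1 array gave 1 to 2 higher and 3 to 4 lower of the 10, and 1243 genes lower in all without OE 1, 1402 without OE 3 and 1400 without CTRL 1, while *Cavin1* ranged from −0.086 to 0.078, the positive value without CTRL 2.

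Of the dyad and T-tubule partners, the methods' test called 2 higher and 3 lower, beside 7.90% and 6.18% of all genes. Limma called 4 higher and 8 lower, beside 14.9% and 11.8%, and ribosomal centring called 15 lower, beside 47.1%. Of the caveola partners, the methods' test called 0 lower and ribosomal centring 8, beside 6.18% and 47.1% of all genes. Limma called 3 of them lower, beside 11.8%. The replicate numbers in the labels did not pair the samples (correlations of deviations 0.07, −0.12 and 0.03). With the replicate number as a block 2369 of all genes were higher and 1679 lower, and 1 of the 10 genes was called higher and 4 lower, since *Cavin4* had an adjusted p of 0.0573 and *Jph2* one of 0.032. Causes of these differences were not tested. The deposited values hold no signal over background, so genes near background could not be recognized.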
